A study of Mus musculus with 8 samples.

Results

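The glycolysis and hypoxia response genes examined here are 40 mouse genes of the 55487 in the deposited table, chosen by symbol: 3 transporters of glucose and lactate, 16 glycolytic enzymes, 3 regulators of glycolytic flux, 5 subunits and oxygen sensors of the hypoxia-inducible factor (HIF) system, and 13 genes of the hypoxia response. Their RNA was measured by sequencing polyadenylated RNA from cultured Lewis Lung Carcinoma (LLC) cells, a mouse lung carcinoma line, in 4 wild-type and 4 Ago2 knock-out (ΔAgo2) libraries. Both genotypes grew in DMEM with fetal bovine serum, outside any animal, and the labels put all 8 libraries in batch 1. ΔAgo2 cells carried a lentiviral CRISPR-Cas9 knock-out of Ago2, the Argonaute protein that binds microRNAs and cuts their targets, and had passed through puromycin selection and single-cell sorting. No such vector or sorting is given for the wild-type cells, and the sources used here do not say which ΔAgo2 clone was sequenced. If the knock-out libraries came from 1 clone, loss of Ago2 and clone cannot be told apart. The titles call the samples biological replicates without saying that they came from separate cultures, so every p-value measures the spread between these libraries. No oxygen level is given, so the values describe genes of the hypoxia response in ordinary culture and not a response to low oxygen.

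Glycolysis splits glucose into pyruvate, and lactate dehydrogenase turns pyruvate into lactate, which leaves the cell through monocarboxylate transporters. HIF is a pair of a regulated alpha subunit and the constant subunit ARNT; prolyl hydroxylases mark the alpha subunit for destruction when oxygen is present. Many tumour cells keep glycolysis high even in oxygen, and HIF raises most of the genes named here when oxygen is scarce, through a short DNA core near their start sites.

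That core is shown in the promoters of 4 members, as examples from different roles: Ldha and Pgk1 among the enzymes, Bnip3 and Adm among the hypoxia response genes. Each sequence is the 250 bases before the RefSeq start site on GRCm38.p6, written 5′ to 3′ on the gene's own strand, with every match to ACGTG or GCGTG, or to their reverse complements CACGT and CACGC, in capitals. The palindrome CACGTG, a site of many other factors, contains 2 of these matches. Ldha had 2 RefSeq promoter windows, and the one printed was chosen for its number of matches.
Ldha chr7:46845554-46845803 (+): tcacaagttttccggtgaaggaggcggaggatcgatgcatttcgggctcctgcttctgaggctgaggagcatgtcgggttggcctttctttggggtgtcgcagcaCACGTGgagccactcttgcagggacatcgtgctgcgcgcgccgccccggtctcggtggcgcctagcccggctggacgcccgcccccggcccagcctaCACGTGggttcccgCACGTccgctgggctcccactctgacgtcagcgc
Pgk1 chrX:106186850-106187099 (+): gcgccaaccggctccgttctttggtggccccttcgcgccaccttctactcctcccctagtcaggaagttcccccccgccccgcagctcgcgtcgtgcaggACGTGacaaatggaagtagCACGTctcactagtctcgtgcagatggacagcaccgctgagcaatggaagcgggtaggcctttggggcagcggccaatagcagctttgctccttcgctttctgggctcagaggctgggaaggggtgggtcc
Bnip3 chr7:138909507-138909756 (-): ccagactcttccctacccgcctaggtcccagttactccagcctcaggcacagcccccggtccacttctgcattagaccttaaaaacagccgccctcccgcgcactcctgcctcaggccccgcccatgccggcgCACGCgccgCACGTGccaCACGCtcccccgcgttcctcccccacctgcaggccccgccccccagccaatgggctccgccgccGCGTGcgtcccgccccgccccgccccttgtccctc
Adm chr7:110627407-110627656 (+): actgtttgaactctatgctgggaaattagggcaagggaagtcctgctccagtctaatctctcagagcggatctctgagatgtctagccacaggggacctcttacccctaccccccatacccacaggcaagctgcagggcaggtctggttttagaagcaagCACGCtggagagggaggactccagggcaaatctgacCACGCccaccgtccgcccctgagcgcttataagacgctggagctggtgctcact

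Counting overlapping matches on both strands, the Ldha and Bnip3 sequences held 5 each and those of Pgk1 and Adm held 2 each. RefSeq windows of 300 bases (250 before to 50 after a start) were at hand for 36 members, and 33 of these (91.7%) had at least 1 match in a window, against 46.7% of 27025 genes. Counted by window, 42 of 54 member windows (77.8%) and 43.8% of 32851 windows held a match. Member windows were richer in G and C, with a median of 62.2% against 52.7%. Among the 8821 windows of all genes within the middle GC range of the member windows (56.4% to 68.3%), 63.1% held a match. The share of member windows within that range was not taken, so this value and 77.8% are not matched for GC. The members with no match in the windows searched were Eno2, Gpi1 and Tpi1, and no window was given for Epas1, Bnip3l, Slc2a3 and Ndrg1. A match in these letters is a description of the sequence, and no binding was measured.

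The libraries held 39628101 to 68530912 counted reads. Wild-type replicate 4 stood apart: mitochondrial genes took 0.540% of its reads against 2.39% to 4.51% in the other 7 libraries, and its median Spearman correlation with its own group was 0.864, against 0.948 to 0.961 in the other wild-type and 0.985 to 0.986 in the ΔAgo2 libraries. The tests were therefore run with and without that library. Where no fit is named, a fold change or adjusted p is from edgeR with all 8 libraries. The targeted gene, Ago2, did not separate the genotypes as RNA, at 67.3, 75.2, 127 and 18.9 TPM in wild-type replicates 1 to 4 and 104, 75.7, 98.4 and 79.6 in ΔAgo2 replicates 1 to 4, and a CRISPR edit of the coding sequence need not lower the transcript, so the RNA does not check the labels. The paper examined Ago2 protein in wild-type and ΔAgo2 LLC cells by Western blot, and protein is not part of these data. The 6 mesenchymal markers summed to 3162 to 4236 TPM in wild-type and 4050 to 5016 in ΔAgo2 libraries, most of it Vim and Fn1. The 6 epithelial markers summed to 246 to 1675 and 730 to 1134 TPM, nearly all of it Krt8 and Krt18. The other 4 were low or absent, with Krt19 at up to 4.7 TPM, Krt7 at up to 1.67, Cdh1 at up to 0.12 and Epcam at 0 to 1 counts. All 5 lung epithelial markers and all 4 erythroid markers were at 3 counts or fewer in every library, as were 5 of 6 leukocyte markers (Csf1r had up to 8 counts), and the 4 endothelial markers reached at most 0.57 TPM each. In bulk RNA, fewer cells expressing a gene and less of it per cell cannot be told apart.

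The enzymes of lower glycolysis were among the most abundant members. TPM, a level corrected for transcript length within each library, allows levels of different genes to be set side by side. By mean TPM over the 8 libraries, Gapdh led at 2244, followed by Pkm at 2113, Ldha at 1507, Eno1 at 1169 and Aldoa at 1089.7. The next 4 were also enzymes, Tpi1 at 894, Pgk1 at 633, Pgam1 at 366 and Gpi1 at 356. Of the hypoxia response genes, P4ha1 at 203 and Ddit4 at 202 were highest. In all, 17 members had a mean above 100 TPM, 20 lay between 1 and 100, and 3 lay under 1, namely Car9 at 0.359, Aldoc at 0.349 and Epas1 at 0.06. The order was steep but blurred by the spread: for each of the 39 pairs of neighbours in it, the ranges over the 8 libraries overlapped.

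**Figure D1:**
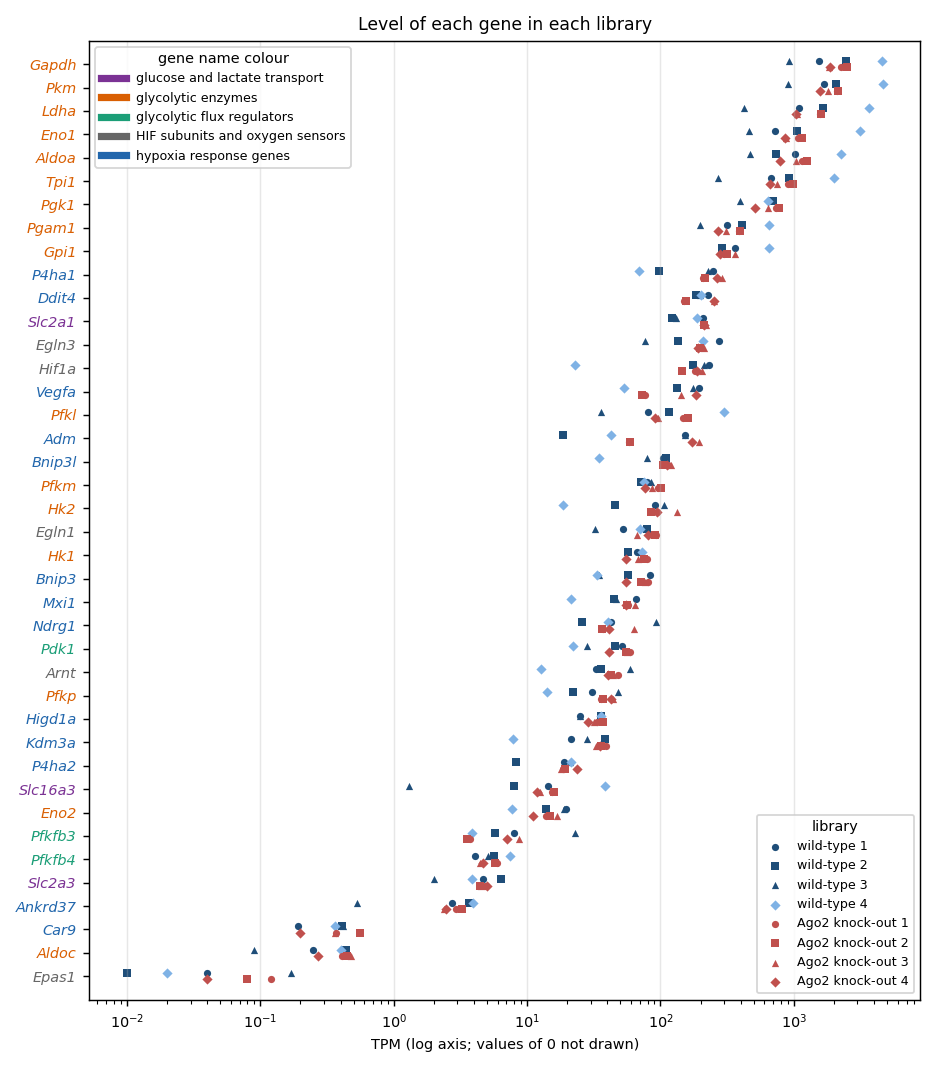
TPM of each of the 40 genes (rows, ordered by mean, names coloured by role) in each of the 8 libraries on a log axis, with wild-type in blue and ΔAgo2 in red. Abundant glycolytic enzymes fill the top rows, from Gapdh at a mean of 2244 TPM down to Gpi1 at 356, and wild-type replicate 4 (light diamonds) lies far from the other wild-type libraries for many genes.

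Across the genotypes, no member passed the test. With all 8 libraries, 39 of the 40 members had enough reads to be tested and 0 were called by edgeR's quasi-likelihood test at a Benjamini-Hochberg adjusted p under 0.05, where 0.295% of all 14228 genes were called; DESeq2 also called 0 (2.23% of all genes). At an unadjusted p under 0.05 the members gave 0 with edgeR and 0 with DESeq2, against 7.34% and 9.72% of all genes. For 0 members did the CPM values of the groups fail to overlap (6.07% of all genes). CPM puts counts on a common library size, here scaled by TMM factors, a correction for RNA composition in each library. It compares libraries but not genes. The factor of wild-type replicate 4 was the lowest, at 0.791 against 0.983 to 1.11, which raises its CPM values. By TPM, 1 member (Slc2a1) had groups that did not overlap, with and without wild-type replicate 4 (6.19% and 11.1% of all genes). Adjusted p-values of the members ran from 0.732 to 0.981. Without wild-type replicate 4, again 0 were called (0.777% of 14541 genes), 1 had an unadjusted p under 0.05 (12.6% of all genes) and 0 had groups apart (12.1%).

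That 1 gene was Egln1 (ENSMUSG00000031987.6, chromosome 8, 124908587 to 124949324, minus strand), on GRCm38, which encodes the prolyl hydroxylase PHD2, the main oxygen sensor of the HIF system. Its level was 52.2, 79.2, 32.2 and 69.99 TPM in wild-type replicates 1 to 4 and 92.3, 91.1, 66.2 and 80.9 in ΔAgo2 replicates 1 to 4. In TPM, 3 of the 4 ΔAgo2 libraries lay above every wild-type library, while in CPM wild-type replicate 4 was the highest of the 8, at 113 against 70.4 to 90.2 in ΔAgo2. The log2 fold change of ΔAgo2 over wild-type was 0.24 (SE 0.35) with all libraries, adjusted p = 0.874. It was 0.57 (SE 0.25) without wild-type replicate 4, with a 95% interval of 0.013 to 1.14, an unadjusted p of 0.0457 and an adjusted p of 0.384 by edgeR's quasi-likelihood test.

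The absence of calls is not a measure of sameness. With all libraries the 95% interval of the fold change lay within a 2-fold change in either direction for 14 of 39 members (26.7% of all genes), and without wild-type replicate 4 for 23 of 39 (55.1%). The widest was that of Slc16a3, from -2.47 to 1.18 on the log2 scale, and a narrow one was that of Pfkm, from -0.61 to 0.54. The median standard error was 0.41 with all libraries and 0.28 without that one, beside 0.42 and 0.27 over all genes.

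The direction of the set turned on 1 library. With all 8 libraries, 25 members had a log2 fold change below 0 and 14 above, with a median of -0.11 beside -0.11 over all genes, of which 41.2% were above 0. Leaving out wild-type replicate 4 left 8 below and 31 above 0, with a median of 0.18 against -0.037 over all genes, of which 45.8% were above 0. Of the 39 genes, 19 moved from below to above 0 and 2 from above to below, together 21 (28.6% of all genes did so). Among the glycolytic enzymes, 13 of 16 were below 0 with the library (median -0.52) and 14 of 16 above 0 without it (median 0.26). The medians with and without it were -0.061 and 0.40 for the transporters and -0.10 and 0.16 for the hypoxia response genes. None of these directions rests on a gene that passed the test.

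**Figure D2:**
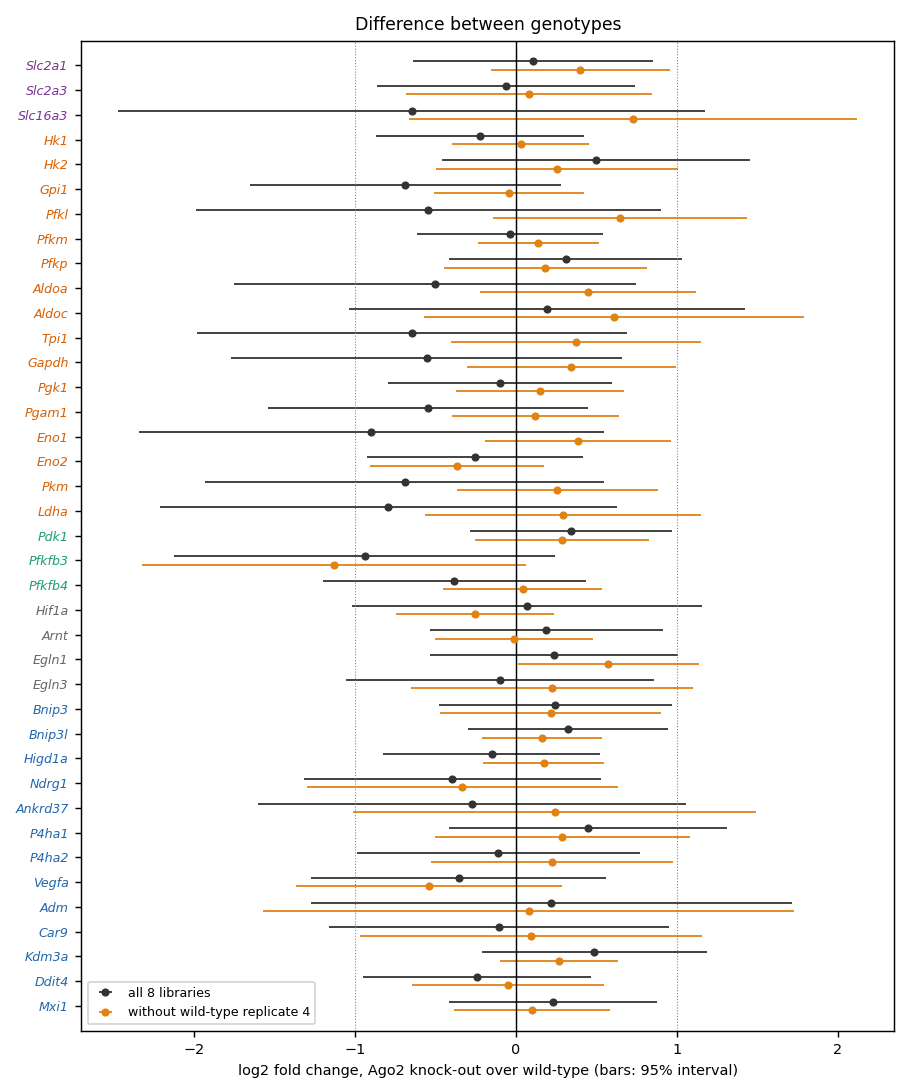
Log2 fold change of ΔAgo2 over wild-type for the 39 tested genes (rows, in role order), with bars for the 95% interval, from all 8 libraries (black) and without wild-type replicate 4 (orange). The black points of the enzymes lie mostly left of 0 (13 of 16) and the orange points mostly right of it (14 of 16); the Egln1 interval without that library is the 1 that does not cross 0.

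Glucose enters and lactate leaves through the 3 transporters. Slc2a1, the GLUT1 glucose transporter, stood at 209.9, 122, 130.1 and 188 TPM in wild-type replicates 1 to 4 and 212, 211, 218 and 213 in ΔAgo2 replicates 1 to 4, so every ΔAgo2 library lay above every wild-type library, by 211 against 209.9 TPM at the nearest. In CPM, the measure of the test, the groups overlapped, since wild-type replicates 1 and 4 were at 238 and 298 and the ΔAgo2 libraries at 197 to 226. Its log2 fold change was 0.11 (SE 0.34), and 0.40 (SE 0.25) without wild-type replicate 4, with adjusted p = 0.536 in the latter. Slc2a3, the GLUT3 transporter, was far lower, at 4.71, 6.36, 2.01 and 3.84 TPM in wild-type replicates 1 to 4 and 4.81, 4.44, 4.51 and 4.97 in ΔAgo2 replicates 1 to 4. Slc2a1 therefore made up 95.04% to 98.5% of the summed TPM of both genes in every library. Slc16a3, the lactate exporter MCT4, varied most among the wild-type libraries, at 1.3 to 38.05 TPM across the wild-type and 11.9 to 15.8 across the ΔAgo2 libraries, and its log2 fold change moved from -0.65 (SE 0.82) to 0.73 (SE 0.62) when wild-type replicate 4 was left out.

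Hexokinases trap glucose as its phosphate. Hk1, the widespread form, was at 66.8, 56.7, 71.9 and 72.9 TPM in wild-type replicates 1 to 4 and 79.2, 75.1, 67.5 and 54.7 in ΔAgo2 replicates 1 to 4, and the groups overlapped. Hk2, the inducible form, was at 91.6, 45.7, 107 and 18.6 TPM in wild-type replicates 1 to 4 and 94.6, 84.5, 133 and 93.8 in ΔAgo2 replicates 1 to 4, lowest in wild-type replicate 4. The share of Hk2 in the summed TPM of both was 57.8, 44.6, 59.8 and 20.3% in wild-type and 54.4, 52.96, 66.4 and 63.2% in ΔAgo2 replicates, so that Hk2 made up most of the pair in 2 of 4 wild-type and 4 of 4 ΔAgo2 libraries while the ranges overlapped. The log2 fold changes were -0.22 (SE 0.29) for Hk1 and 0.50 (SE 0.43) for Hk2, with adjusted p-values of 0.858 and 0.787. Without wild-type replicate 4 the fold changes were 0.029 (SE 0.19) and 0.25 (SE 0.33). Gpi1, the isomerase of the next step, ran at 284 to 651 TPM across the wild-type and 281 to 364 across the ΔAgo2 libraries.

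Phosphofructokinase commits sugar to glycolysis and is encoded by 3 genes. Pfkl, the liver form, was at 80.4, 116, 35.6 and 297 TPM in wild-type replicates 1 to 4 and 148, 159.7, 95.8 and 90.7 in ΔAgo2 replicates 1 to 4. Pfkm, the muscle form, was at 79.2, 71.1, 85.4 and 75.5 TPM in wild-type replicates 1 to 4 and 96.6, 101, 85.8 and 76.01 in ΔAgo2 replicates 1 to 4, and Pfkp, the platelet form, at 30.4, 22.2, 48.4 and 14.03 TPM in wild-type replicates 1 to 4 and 35.6, 36.8, 43.9 and 42.7 in ΔAgo2 replicates 1 to 4. The wild-type libraries spanned the ΔAgo2 libraries for Pfkl and Pfkp, while ΔAgo2 replicates 1 to 3 lay above every wild-type library for Pfkm in TPM. The nearest of these values were 85.8 and 85.4 TPM. In CPM wild-type replicate 4 was the highest library for Pfkm, at 114 against 71.9 to 92.7 in ΔAgo2. The log2 fold change of Pfkm was -0.036 (SE 0.26), and 0.14 (SE 0.17) without wild-type replicate 4. The share of Pfkl in the family was 42.3, 55.4, 21.0 and 76.9% in wild-type replicates, from the lowest share in replicate 3 to the highest in replicate 4, and 52.8, 53.7, 42.5 and 43.3% in ΔAgo2. Its mean was 48.9% ± 23.4 (SD, n = 4) and 48.1% ± 5.997 (SD, n = 4). The family was thus mixed in every library. Pfkp was the smallest part in every library of both genotypes except wild-type replicate 3, where it took 28.6% and Pfkl 21.0%. No member of the family passed the test, with adjusted p-values of 0.842, 0.981 and 0.825 in the order named.

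Aldolase A (Aldoa) cleaves the sugar into 3-carbon units, and its level was 1024, 729.8, 473 and 2258 TPM in wild-type replicates 1 to 4 and 1146, 1259, 1044 and 783 in ΔAgo2 replicates 1 to 4. Wild-type replicate 4 was the highest of the 8 libraries and wild-type replicate 3 the lowest. The gene examined is ENSMUSG00000030695.16 (chromosome 7, 126795234 to 126800751), and a second identifier of the same symbol at 126800790 to 126809108 was at 3.93 to 10.35 TPM. Aldoc, the brain form, stayed between 0.09 and 0.48 TPM, so Aldoa made up over 99.9% of the pair in every library. Triosephosphate isomerase (Tpi1) ran at 269 to 1999 TPM across the wild-type and 661 to 977 across the ΔAgo2 libraries.

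Gapdh, which makes the first high-energy intermediate of the lower pathway, was at 1542, 2461, 924 and 4575 TPM in wild-type replicates 1 to 4 and 2274, 2488, 1829 and 1859 in ΔAgo2 replicates 1 to 4. Phosphoglycerate kinase (Pgk1), the first step that yields ATP, ran at 396 to 699.6 TPM across the wild-type and 515 to 773 across the ΔAgo2 libraries, and the mutase Pgam1 at 196 to 647 TPM across the wild-type and 272 to 391 across the ΔAgo2 libraries. Enolase 1 (Eno1) was at 721, 1051, 459 and 3158 TPM in wild-type replicates 1 to 4 and 1079, 1156, 871 and 855 in ΔAgo2 replicates 1 to 4. Again wild-type replicate 4 was the highest and replicate 3 the lowest for Gapdh and Eno1, and the ΔAgo2 libraries lay between them. Eno2, the neuronal enolase, was at 19.6, 13.9, 18.96 and 7.69 TPM in wild-type replicates 1 to 4 and 13.8, 14.9, 16.7 and 11.2 in ΔAgo2 replicates 1 to 4, and here wild-type replicate 4 was the lowest. Eno1 supplied 96.03% to 99.8% of the 2 enolases.

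Pyruvate kinase (Pkm), whose splice forms are not separated in gene counts, was at 1681, 2081, 900.2 and 4629 TPM in wild-type replicates 1 to 4 and 2094, 2148, 1794 and 1573 in ΔAgo2 replicates 1 to 4. Lactate dehydrogenase A (Ldha), whose promoter is printed above, was at 1092, 1653, 423 and 3629 TPM in wild-type replicates 1 to 4 and 1576, 1598, 1048 and 1042 in ΔAgo2 replicates 1 to 4. The same order of libraries held, with replicate 3 lowest and replicate 4 highest of the wild-type. The log2 fold changes with all libraries were -0.55 (SE 0.55) for Gapdh, -0.90 (SE 0.65) for Eno1, -0.69 (SE 0.56) for Pkm and -0.79 (SE 0.64) for Ldha. Without wild-type replicate 4 they were 0.34 (SE 0.29), 0.39 (SE 0.26), 0.26 (SE 0.28) and 0.29 (SE 0.38) in that order, all of the opposite sign. Among the 16 enzymes the smallest adjusted p was 0.7398 with all libraries and 0.4896 without that one, in edgeR's quasi-likelihood test. Pseudogenes or retrogenes of Gapdh, Ldha, Pgk1, Pgam1, Aldoa, Tpi1 and Eno1 are annotated, and how reads matching several copies were counted is not given in the sources used here, so these levels are uncertain to that degree.

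Taken as a sum, the 16 enzymes made up 0.844, 1.06, 0.469 and 2.27% of all TPM in wild-type replicates 1 to 4 and 1.097, 1.16, 0.909 and 0.821% in ΔAgo2 replicates 1 to 4. The 2 extreme libraries were both wild-type, replicate 3 at the bottom and replicate 4 at the top. By CPM, wild-type replicate 4 was the highest of the 8 libraries for 13 of the 16 enzymes and for 24 of the 39 tested members, where it was highest for 35.4% of all genes. By TPM it was highest for 9 of the 16 enzymes and for 12 of the 39 members, and lowest for 12 of the 39. Wild-type replicate 3 was the lowest for 10 of 16 enzymes by either measure and for 18 of 39 members by CPM (20.6% of all genes).

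**Figure D3:**
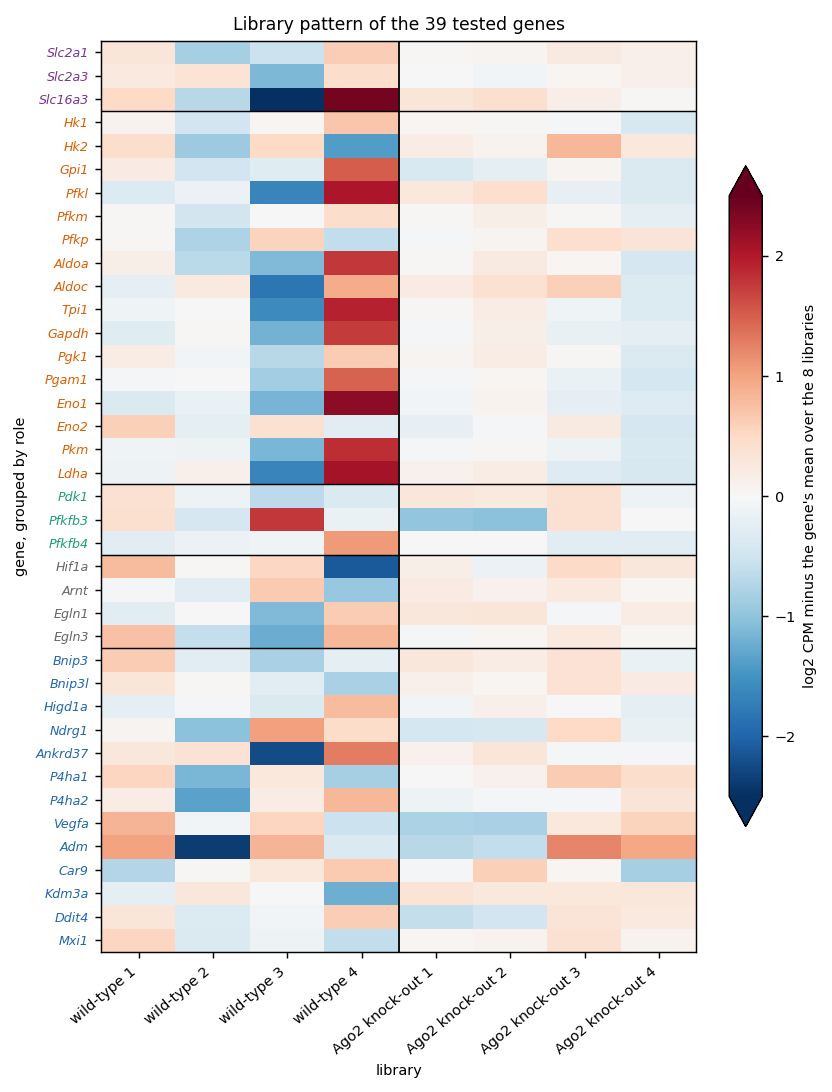
Log2 CPM of the 39 tested genes (rows, grouped by role) in each library (columns), as the difference from the gene's mean over the 8 libraries, red above and blue below it and limited at 2.5. The column of wild-type replicate 4 is red for 13 of 16 enzymes as the highest library, the column of wild-type replicate 3 is mostly blue, and the 4 ΔAgo2 columns are pale by comparison.

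The members varied far more among wild-type than among ΔAgo2 libraries. The SD of log2 CPM over 4 libraries was larger in wild-type for 36 of 39 members, with medians of 0.82 in wild-type and 0.21 in ΔAgo2. Over all genes the wild-type SD was larger for 93.3%, with medians of 0.78 and 0.23. Without wild-type replicate 4 the wild-type median was 0.58 for the members and 0.43 for all genes, and the wild-type SD was larger for 35 of 39 members (78.8% of all genes).

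The deviation of wild-type replicate 4 ran with base composition. Over the 39 members, Spearman's rho between the GC content of the longest annotated transcript and the log2 CPM of that library minus the mean of the other 3 wild-type libraries was 0.68, and over 14226 genes it was 0.72. All points share the same 4 libraries, so this is a description across genes. Of the 9 members below 48% GC, 1 was higher in wild-type replicate 4 (median deviation -0.71). The numbers were 13 of 18 from 48% to 54% (median 1.07) and 11 of 12 at 54% or more (median 1.16). Near the low end stood Hif1a with 41.3% GC and a deviation of -2.53, and near the high end Eno1 with 57.4% and 2.81. Other members near the ends deviated less, as Bnip3 with 41.6% at -0.071 and Ddit4, the highest in GC with 57.9%, at 0.65. Hk2, with 51.9% GC, went the other way at -1.40, as did Eno2 with 54.8% at -0.53. The part of base composition in the levels of that library was not tested.

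**Figure D4:**
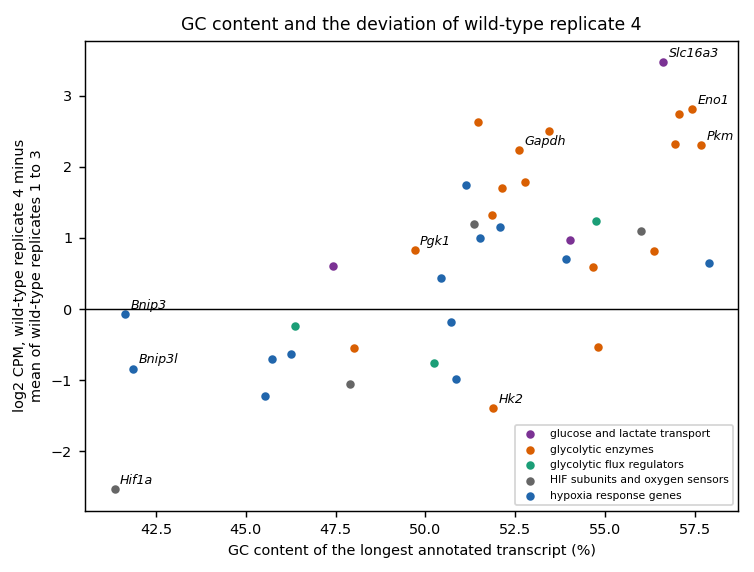
GC content of the longest transcript (x, percent) against the log2 CPM of wild-type replicate 4 minus the mean of wild-type replicates 1 to 3 (y) for the 39 tested genes, coloured by role. The points rise from Hif1a at -2.53 to Slc16a3 at 3.47, with a Spearman rho of 0.68 across genes.

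The 3 regulators of flux act on entry to and exit from glycolysis. Pfkfb3, whose product makes the activator of phosphofructokinase, had the smallest p of all members with all libraries. Its level was 8.0, 5.79, 23.0 and 3.88 TPM in wild-type replicates 1 to 4 and 3.76, 3.52, 8.72 and 7.03 in ΔAgo2 replicates 1 to 4. The highest value was that of wild-type replicate 3 and the 2 lowest were those of ΔAgo2 replicates 2 and 1. The log2 fold change was -0.94 (SE 0.53), with a 95% interval of -2.12 to 0.24, an unadjusted p of 0.107 and an adjusted p of 0.732 by edgeR's quasi-likelihood test. Without wild-type replicate 4 it was -1.13 (SE 0.53), unadjusted p = 0.0605 and adjusted p = 0.423. Pfkfb4, a relative of it, was at 4.07, 5.68, 5.1 and 7.42 TPM in wild-type replicates 1 to 4 and 5.95, 5.77, 4.47 and 4.71 in ΔAgo2 replicates 1 to 4. The share of Pfkfb3 in the pair was 66.3, 50.5, 81.9 and 34.3% in wild-type and 38.7, 37.9, 66.1 and 59.9% in ΔAgo2 replicates, so either gene could be the larger within both genotypes. Pdk1, the kinase that shuts pyruvate dehydrogenase, ran at 22.1 to 51.8 TPM across the wild-type and 41.4 to 58.7 across the ΔAgo2 libraries, with a log2 fold change of 0.34 (SE 0.28) and, without wild-type replicate 4, 0.29 (SE 0.24).

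**Figure D5:**
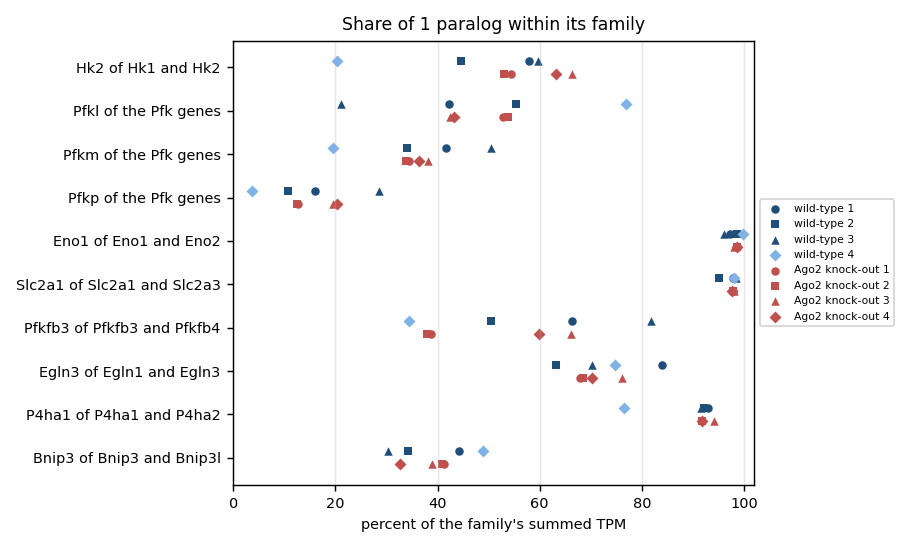
Percent of a family's summed TPM taken by 1 of its genes (x) in each library, wild-type in blue and ΔAgo2 in red, for 8 gene families. In every row the genotypes overlap, and wild-type replicate 4 (light diamonds) is at an end of the wild-type range in most rows, as for Hk2 at 20.3% and Pfkl at 76.9%.

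Of the HIF alpha subunits measured, Hif1a was the abundant one. Hif1a (ENSMUSG00000021109.13, chromosome 12, 73901375 to 73947530, plus strand) encodes the oxygen-regulated alpha subunit. It was at 233, 174, 214 and 22.8 TPM in wild-type replicates 1 to 4 and 182, 144, 205 and 188 in ΔAgo2 replicates 1 to 4. Wild-type replicate 4 lay far below the other 7 libraries, which ranged from 144 to 233 TPM. The log2 fold change was 0.069 (SE 0.49) with all libraries and -0.25 (SE 0.22) without that one, with adjusted p-values of 0.98 and 0.667. The HIF protein is set mainly by its destruction, which RNA does not show. Epas1, which encodes HIF-2 alpha, was between 0 and 0.17 TPM and had 0 to 19 counts a library, too few to be tested. Hif1a therefore made up over 99.9% of the pair in every library.

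Arnt, the constant partner, was at 32.9, 36.05, 59.1 and 12.8 TPM in wild-type replicates 1 to 4 and 47.9, 42.8, 43.96 and 40.3 in ΔAgo2 replicates 1 to 4. As for Hif1a, wild-type replicate 4 was the lowest, and the log2 fold change went from 0.19 (SE 0.33) to -0.011 (SE 0.22) without it. Egln3, which encodes the inducible prolyl hydroxylase PHD3, was at 273, 136, 76.3 and 208 TPM in wild-type replicates 1 to 4 and 195, 199, 211 and 192 in ΔAgo2 replicates 1 to 4. The wild-type libraries lay on both sides of the ΔAgo2 libraries. The log2 fold change was -0.098 (SE 0.43), and 0.22 (SE 0.39) without wild-type replicate 4. Egln3 supplied 83.9, 63.2, 70.3 and 74.8% of the pair with Egln1 in wild-type and 67.9, 68.6, 76.1 and 70.3% in ΔAgo2 replicates.

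Of the hypoxia response genes, Bnip3 and Bnip3l encode receptors that send mitochondria to autophagy. Bnip3 was at 83.4, 57.3, 34.4 and 33.5 TPM in wild-type replicates 1 to 4 and 80.4, 71.9, 76.2 and 54.9 in ΔAgo2 replicates 1 to 4. Bnip3l was at 105, 110.3, 79.2 and 34.9 TPM in wild-type replicates 1 to 4 and 115, 104, 119 and 113 in ΔAgo2 replicates 1 to 4, lowest in wild-type replicate 4. Neither separated the genotypes, with log2 fold changes of 0.25 (SE 0.33) and 0.32 (SE 0.28) and adjusted p-values of 0.858 and 0.787. Bnip3 made up 30.3% to 48.97% of the pair, both ends being wild-type libraries. Higd1a, a small mitochondrial protein of the respiratory chain, ran at 24.7 to 35.9 TPM across the wild-type and 28.5 to 37.2 across the ΔAgo2 libraries.

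P4ha1 and P4ha2 encode the catalytic subunits of collagen prolyl hydroxylase. P4ha1 was at 247, 97.7, 226 and 69.3 TPM in wild-type replicates 1 to 4 and 209, 216, 289 and 267 in ΔAgo2 replicates 1 to 4, and P4ha2 was at 18.9, 8.32, 21.01 and 21.3 TPM in wild-type replicates 1 to 4 and 18.6, 19.2, 17.9 and 23.7 in ΔAgo2 replicates 1 to 4. Wild-type replicates 2 and 4 were low for P4ha1 and wild-type replicate 2 was low for P4ha2. P4ha1 took 76.5% of the pair in wild-type replicate 4 and 91.5% to 94.2% in the other 7 libraries. The log2 fold changes were 0.45 (SE 0.39) and -0.11 (SE 0.40), and 0.29 (SE 0.35) and 0.23 (SE 0.33) without wild-type replicate 4.

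Vegfa, the main growth factor of blood vessels, and Adm, the vasodilator peptide adrenomedullin, are secreted, and they are described by library because their ΔAgo2 values fell apart, a choice made after those values were seen. Vegfa was at 195, 132, 174 and 53.5 TPM in wild-type replicates 1 to 4 and 76.9, 72.98, 142 and 183 in ΔAgo2 replicates 1 to 4. Adm was at 153, 18.6, 153 and 42.9 TPM in wild-type replicates 1 to 4 and 57.7, 58.9, 196 and 171 in ΔAgo2 replicates 1 to 4. In ΔAgo2, replicates 1 and 2 lay below replicates 3 and 4 for both genes, and the wild-type libraries covered most of the same range. The log2 fold changes were -0.36 (SE 0.41) for Vegfa and 0.22 (SE 0.67) for Adm, with adjusted p-values of 0.841 and 0.946. By CPM, ΔAgo2 replicates 1 and 2 were both below replicates 3 and 4 for 7 of the 13 hypoxia response genes and for 13 of 39 members (26.5% of all genes). They were both above for 10 of the 16 enzymes and 14 of 39 members (27.1% of all genes). The order was read from Vegfa and Adm, which are among the 7, so these counts are no support for a trait of either list. ΔAgo2 replicates 1 and 2 were also the closest ΔAgo2 pair over all tested genes. Their chi-square per gene was 22.8, against 89 to 126 for the other pairs. The labels name nothing that sets those libraries apart, and these shares were not tested.

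The other hypoxia response genes all overlapped between the genotypes. Ndrg1, a gene of stress and differentiation, ran at 25.6 to 93.1 TPM across the wild-type and 36.3 to 62.99 across the ΔAgo2 libraries, Ddit4, an inhibitor of mTORC1, at 185 to 226 TPM across the wild-type and 149 to 251 across the ΔAgo2 libraries, and Mxi1, a repressor that opposes Myc, at 21.3 to 65.4 TPM across the wild-type and 54.9 to 64.4 across the ΔAgo2 libraries. Kdm3a, a histone H3 lysine demethylase, ran at 7.78 to 38.6 TPM across the wild-type and 33.01 to 39.1 across the ΔAgo2 libraries, and its log2 fold change was 0.49 (SE 0.32) with all libraries and 0.27 (SE 0.16) without wild-type replicate 4, with adjusted p-values of 0.7398 and 0.529. The lowest were Ankrd37, an ankyrin repeat gene, at 0.53 to 3.94 TPM across the wild-type and 2.37 to 3.25 across the ΔAgo2 libraries, and Car9, carbonic anhydrase 9, a widely used marker of hypoxic tumour cells, at 0.19 to 0.42 TPM across the wild-type and 0.2 to 0.56 across the ΔAgo2 libraries. Car9 was thus near 0 in both genotypes while Ldha, Pgk1, Vegfa and Adm were expressed.

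The fuller pathway was covered by 75 further genes in 5 lists, of which 66 could be tested. With all libraries 0 of them were called by edgeR's quasi-likelihood test at an adjusted p under 0.05, and 2 higher and 6 lower had an unadjusted p under 0.05 (2.72% and 4.62% of all genes). The CPM values of the genotypes did not overlap for 6 of the 66 (6.07% of all genes), and for 13 without wild-type replicate 4 (12.1%). Their median log2 fold change was -0.15, and -0.11 without wild-type replicate 4.

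Of 12 genes for the entry of pyruvate into mitochondria, 3 were lower in ΔAgo2 at an unadjusted p under 0.05 by edgeR (4.62% of all genes). These 3 are among the 6 of 66 whose CPM values did not overlap (6.07% of all genes). The list was chosen with earlier results of these data known, so neither count is a test of the list. Pdk4, a kinase that, as Pdk1 does, shuts pyruvate dehydrogenase, was at 4.13, 2.08, 7.3 and 2.35 TPM in wild-type replicates 1 to 4 and 0.84, 0.98, 0.61 and 0.78 in ΔAgo2 replicates 1 to 4. Its log2 fold change was -2.496 (SE 0.48), adjusted p = 0.0797 by edgeR's quasi-likelihood test. Without wild-type replicate 4 it was -2.56 (SE 0.46) and passed, with adjusted p = 0.0466, the 1 call among the 66 genes in that fit, and without wild-type replicate 2 it was -2.77 with adjusted p = 0.0314.

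Pdk2, another of these kinases, was at 6.09, 2.37, 3.94 and 6.55 TPM in wild-type replicates 1 to 4 and 1.83, 1.99, 1.15 and 2.01 in ΔAgo2 replicates 1 to 4, with a log2 fold change of -1.78 (SE 0.50) and adjusted p = 0.316. Mpc1, a subunit of the mitochondrial pyruvate carrier, was at 20.9, 17.6, 30.6 and 17.6 CPM in wild-type replicates 1 to 4 and 11.01, 11.4, 13.9 and 10.97 in ΔAgo2 replicates 1 to 4, with a log2 fold change of -0.88 (SE 0.28) and adjusted p = 0.445. In TPM the groups of Mpc1 overlapped, since wild-type replicate 4 was at 18.8 and the ΔAgo2 libraries at 18.6 to 22.5. DESeq2, with all 8 libraries, called Pdk4 (adjusted p = 1.54e-05) and Pdk2 (adjusted p = 0.0182). For Pdk2 the call rests on DESeq2 alone, since edgeR's adjusted p ran from 0.0916 to 0.701 over its settings. On counts simulated with the same spread in both genotypes, unlike these libraries, DESeq2 made more false calls than edgeR. It also recovered more of the changed genes there. Pdk1, the kinase of this family among the members and a known HIF target, was at 51.8, 45.7, 28.0 and 22.1 TPM in wild-type and 58.7, 55.2, 56.2 and 41.4 in ΔAgo2, and whether it differed from Pdk2 and Pdk4 in its response was not tested. Dld, the shared dehydrogenase subunit, had an unadjusted p under 0.05 only without wild-type replicate 4, at -0.42 (SE 0.15) with adjusted p = 0.276.

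Among 22 tested further genes of the hypoxia response, Loxl2, a lysyl oxidase that crosslinks collagen, held 242, 204, 552 and 520 counts in wild-type and 1, 1, 2 and 33 counts in ΔAgo2 replicates. The ΔAgo2 libraries were thus near 0 except replicate 4. Its log2 fold change was -5.45 (SE 1.11), adjusted p = 0.0991, with 0.0884 without wild-type replicate 4 and 0.0424 without ΔAgo2 replicate 4 (all edgeR), and 8.2e-07 from DESeq2. DESeq2 also called Rora, a nuclear receptor that was too low for edgeR's filter, at 36, 6, 105 and 4 counts in wild-type and 5, 1, 2 and 3 in ΔAgo2 (adjusted p = 0.0122), named here after its values were seen, so this call too rests on DESeq2 alone. Ak4, a mitochondrial adenylate kinase, was the reverse, at 15.2, 20.6, 13.7 and 12.8 TPM in wild-type replicates 1 to 4 and 30.2, 28.6, 25.8 and 25.1 in ΔAgo2 replicates 1 to 4. No ΔAgo2 value was as low as the highest wild-type value, with a log2 fold change of 0.62 (SE 0.24) and adjusted p = 0.582. Wsb1, a ubiquitin ligase adaptor, had an unadjusted p under 0.05 only without wild-type replicate 4 (-0.80 (SE 0.31), adjusted p = 0.342).

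In the list of 9 tested HIF regulators, Arnt2, a relative of Arnt at low level, was at 0.69, 0.35, 1.12 and 0.64 TPM in wild-type replicates 1 to 4 and 1.78, 1.55, 1.81 and 1.71 in ΔAgo2 replicates 1 to 4. The groups did not overlap, and the log2 fold change was 1.05 (SE 0.44) with adjusted p = 0.638. Of 10 tested glycolytic isozymes, Slc2a4, the insulin-responsive GLUT4, was lower in ΔAgo2 at -1.93 (SE 0.68) (adjusted p = 0.511), from 2 to 49 counts a library. Of 13 tested pentose phosphate and glycogen genes, Taldo1, the transaldolase, had -0.87 (SE 0.39) (adjusted p = 0.674), and Ugp2, which makes UDP-glucose, had -0.76 (SE 0.19) without wild-type replicate 4 (adjusted p = 0.141). None of these 4 passed the adjusted threshold in either fit.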

How the data were processed

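The authors grew wild-type and ΔAgo2 LLC cells, sequenced paired-end stranded mRNA libraries, aligned reads to ribosomal RNA and then to mm10 (STAR is named in the submitters' processing notes), and counted reads per gene with featureCounts. The deposited counts are raw; the deposited TPM values were made by the authors. Annotation release and strand setting are not given in the sources used here, so overlapping genes may share reads.

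Here, identifiers were matched without versions to GENCODE on GRCm38 (93 unmatched) for names, positions and GC content. Counts were tested with edgeR 4.0.16 in R 4.3.3 (filterByExpr, TMM, quasi-likelihood, two-sided, genotype only, Benjamini-Hochberg over all tested genes), first on simulated counts. Genotype came from the titles. Intervals are 95%, and the floor is 3 counts. Alternatives were DESeq2 1.42.0, RLE factors, library size alone, no low-count filter, a replicate block and each library left out. No 2 libraries agreed within sampling noise; the closest were ΔAgo2 replicates 1 and 2, with a chi-square of 22.8 per gene.

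All 40 members were accounted for. Values by library are given for members with an unadjusted p under 0.05, groups that do not overlap, the HIF subunits, the 5 highest in TPM and the paralogs; further pathway genes are named by unadjusted p, except 1 that is not reported here. Members and lists were chosen with earlier results of these data known. Motifs were searched in RefSeq promoter windows.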

Additional observations from a re-analysis of the deposited data

Results flagged for a closer look

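In groups of 4 libraries, 1 library can lie far from the others. The gap to the nearest library as a share of the group's range passed Dixon's 95% critical value in 10 of 108 groups, where chance gives about 1 in 20. For gene levels in log2 CPM this was Slc2a3 in wild-type (0.882, replicate 3 low, 11.04, 11.8, 4.25 and 12.5 CPM), Pfkfb4 in wild-type (0.868, replicate 4 high, 6.43, 7.07, 7.27 and 16.3 CPM), Hk1 in ΔAgo2 (0.83, replicate 4 low, 179, 176, 170.1 and 132 CPM) and Mxi1 in ΔAgo2 (0.884, replicate 3 high, 103, 106, 129.9 and 106 CPM). For shares within a family it was P4ha1 of P4ha1 and P4ha2 in wild-type (0.916, replicate 4 low) and ΔAgo2 (0.993, replicate 3 high), Eno1 of the enolases in ΔAgo2 (0.962, replicate 3 low) and Aldoa of the aldolases in wild-type (0.842, replicate 2 low) and ΔAgo2 (0.886, replicate 3 low). The median Spearman correlation of a library with its own group gave 0.867 in wild-type, with replicate 4 low. None of these groups held a member that passed the test between genotypes.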

How the results depend on the processing

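No member was called at an adjusted p under 0.05 in any of 14 settings, the lowest being 0.384 (Egln1 without wild-type replicate 4). With 1 library left out, 0 to 1 members had an unadjusted p under 0.05 and the members' median log2 fold change ran from -0.285 to 0.184. The number of all genes called was 42, and 143 without the low-count filter, 18 with a replicate block, 399 with DESeq2 and 1 to 113 with a library left out.

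In direction, 15 of 39 members held under all 13 alternatives. RLE factors and DESeq2 turned 0, and leaving out wild-type replicate 4 turned 21. With library size alone the log2 fold change turned for Slc2a3 (0.047), Pfkm (0.10), Pgk1 (0.040), Egln3 (0.059), Higd1a (1.1e-05), P4ha2 (0.065) and Car9 (0.021), and without the filter for Pfkm (0.0019). Deviations of same-numbered libraries from their group means correlated at -0.138 to 0.384, and those of differently numbered libraries at -0.361 to 0.457. These values cannot settle whether the numbers pair the libraries, and the main fit did not pair them. With the replicate block the log2 fold change turned for Slc2a3 (0.041), Slc16a3 (0.44), Pfkl (0.16), Egln3 (0.14), Ankrd37 (0.081), P4ha2 (0.052) and the pathway gene Dld (0.060). The cause was not tested. Ranges over left-out libraries that crossed 0 were Adm -0.15 to 0.59, Aldoa -0.79 to 0.45, Aldoc -0.13 to 0.61, Ankrd37 -0.63 to 0.24, Arnt -0.011 to 0.52, Car9 -0.34 to 0.10, Egln3 -0.37 to 0.22, Eno1 -1.21 to 0.39, Gapdh -0.85 to 0.34, Hif1a -0.25 to 0.37, Higd1a -0.27 to 0.17, Hk1 -0.40 to 0.029, Ldha -1.13 to 0.29, P4ha2 -0.41 to 0.23, Pfkfb4 -0.52 to 0.042, Pfkl -0.88 to 0.65, Pfkm -0.19 to 0.14, Pgam1 -0.80 to 0.12, Pgk1 -0.29 to 0.15, Pkm -0.99 to 0.26, Slc16a3 -1.04 to 0.73, Slc2a1 -0.10 to 0.40, Slc2a3 -0.31 to 0.082, Tpi1 -0.98 to 0.37; Dld and Wsb1 turned without wild-type replicate 3 (0.082 and 0.16; ranges -0.42 to 0.082 and -0.80 to 0.16).

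The spread of the wild-type libraries, shown by standard errors of 0.26 or more for the members with all libraries, limits what can be called, and a call missing here does not show equal levels. Of the further pathway genes, Pdk4 and Loxl2 also passed without the low-count filter (adjusted p = 0.0278 and 0.00530), and Loxl2 with the replicate block (0.0224).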
